A study of Drosophila melanogaster with 3 samples.

Results

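The introns described here are removed in at least 1 full-length isoform of fly heads and kept inside an exon in another isoform of the same gene. They were selected from the isoform models themselves: a distinct intron of a multi-exon isoform counted as retained when it lay wholly inside an exon of another multi-exon isoform with the same gene identifier. Of 16030 distinct introns, 274 met this definition (1.71%), in 189 of 3795 genes with a multi-exon isoform. Only the 595 genes with 2 or more multi-exon isoforms could hold such an intron, and in them 274 of 4478 introns were retained (6.12%). Because the definition uses the exon structures, these counts and the lengths below are a description and carry no test. The introns just outside the definition were few. The tightest member, a 744 nt intron of tai (taiman, a coactivator of steroid hormone receptors), had 22 nt of retaining exon on its upstream side, while a 681 nt intron of pyd (polychaetoid, a scaffold of cell junctions) stayed outside because it reached 11 nt beyond a last exon.

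The isoforms come from PacBio Iso-seq, in which a consensus read spans a cDNA over its full length. Total RNA (0.5 µg) was taken from heads of untreated adult w1118 flies, a white-eyed strain used as wild type, which were 3 days old and kept at 25 °C. The 3 libraries form 1 group, were amplified with 14 PCR cycles, selected for cDNA above 3 kb and sequenced on 3 SMRT cells. They were pooled before isoforms were assembled, so each intron has a structure and a list of isoforms but no read count, no value per library and no replicate error. The 95% intervals below are Wilson intervals of shares and Newcombe intervals of their differences, and cover only the number of introns or isoforms counted. Neighbouring introns of a gene are not independent of each other.

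Splicing normally removes every intron before an mRNA leaves the nucleus, and an intron that stays in is called retained. A retained intron in the 5′ UTR changes the leader that ribosomes scan, whereas a retained coding intron adds codons when it is open in the reading frame and otherwise shifts or ends it. An intron whose splice sites both lie inside coding sequence of another mRNA is also called an exitron. An unspliced stretch in a long read can also come from a precursor RNA that had not finished splicing. Full-length cDNA alone does not separate a finished mRNA from such a precursor, and their share was not tested.

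The 274 introns fell into 3 groups by the kind of exon that held them. A first exon held 104 introns of 80 genes, an internal exon 75 introns of 54 genes and a last exon 93 introns of 66 genes. The remaining 2 were held by a first exon in one isoform and an internal exon in another. These were a 233 nt intron of Arr1, the arrestin that binds activated rhodopsin, and a 362 nt intron of Vdup1, which encodes an alpha-arrestin. All retaining exons lay on the strand of the intron. In 185 of the 274 cases the exon matched the outer boundaries of the exons that the intron joins in a spliced isoform. Internal boundaries had to be identical. Where either exon was terminal, a difference of up to 50 nt on the TSS side or 150 nt on the PAS side was allowed. The match is local, and the isoforms could differ elsewhere: for 135 of the 185, some spliced and some retaining isoform shared the PAS. The other 89 lay in exons with another boundary or with several introns.

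Most genes had a single retained intron (132 of 189), 36 had 2, 15 had 3, 5 had 4, and PCB had 5. Genes with more isoforms held them more often. A retained intron was found in 105 of 421 genes with 2 multi-exon isoforms (24.9%, 95% interval 21.0 to 29.3), 46 of 104 with 3 (44.2%), 17 of 39 with 4 (43.6%) and 21 of 31 with 5 or more (67.7%, 50.1 to 81.4), against 31.8% of all 595 genes. The same isoforms that define retention also set these classes. Of the 189 genes, 187 are annotated as protein-coding and 1 identifier had no match in the annotation.

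For 207 of 274 introns, exactly 1 isoform retained the intron and 1 spliced it. The definition needs at least 1 isoform of each form. This balance is therefore fixed in genes with 2 multi-exon isoforms, which were 105 of the 189 genes. Retaining isoforms outnumbered spliced ones at 12 introns and were outnumbered at 44. A single isoform retained the intron in 248 of 274 cases (90.5%), which is likewise fixed in genes with 2 multi-exon isoforms. The most retaining isoforms were 3, for a 78 nt intron of stv (starvin, a BAG-domain co-chaperone) that 2 other isoforms spliced. At the other extreme, a 358 nt intron of Atpalpha, the catalytic subunit of the sodium-potassium ATPase, was retained in 1 isoform and spliced in 9, and a 1787 nt intron of cpx (complexin, a regulator of vesicle fusion) was retained in 1 and spliced in 6. These are numbers of isoform models and not of transcripts.

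Retained introns were of middle length. Their median was 317 nt (quartiles 105 and 720, range 49 to 2642, n = 274), with a 95% interval of the median from 240 to 393. The 15756 other introns had a median of 88 nt (quartiles 62 and 641, up to 189627), and the 4204 other introns of genes with 2 or more isoforms had one of 257.5 nt (quartiles 66 and 1429.75). Introns under 80 nt, the most common size in flies, made up 41 of 274 retained introns (15.0%, 11.2 to 19.7), against 48.1% of other introns and 35.0% of other introns in the same class of genes. At the long end, 43 retained introns (15.7%) were over 1000 nt, against 20.3% of other introns and 30.7% in the same class of genes.

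Read by length class within genes of 2 or more isoforms, the retained share was highest between 80 and 999 nt. It was 14 of 402 (3.48%, 2.09 to 5.76) below 60 nt and 27 of 1110 (2.43%, 1.68 to 3.52) at 60 to 79 nt. It was 64 of 558 (11.5%, 9.08 to 14.4) at 80 to 199 nt, 67 of 587 (11.4%) at 200 to 499 nt and 59 of 487 (12.1%, 9.51 to 15.3) at 500 to 999 nt. Above these it was 36 of 482 (7.47%) at 1000 to 1999 nt, 7 of 196 (3.57%) at 2000 to 2999 nt and 0 of 656 from 3000 nt upwards, which allows a share of up to 0.582% (upper Wilson bound). An exon longer than the intron is required by the definition, and retaining exons had a median of 1224.5 nt (range 201 to 5234), and how much of the fall at the long end this requirement sets was not tested.

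**Figure D1:**
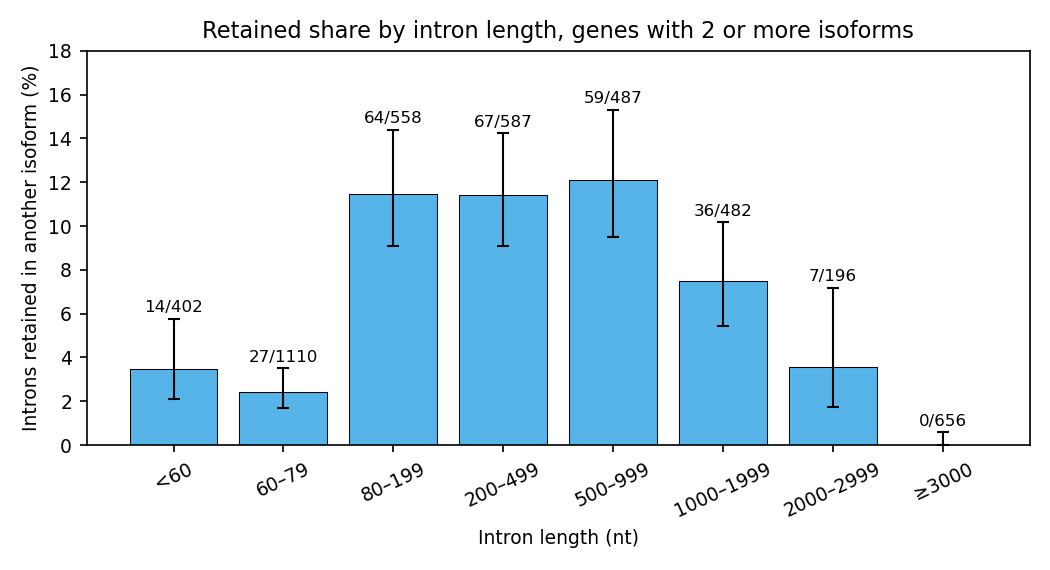
Share of introns retained in another isoform (vertical axis, percent) by intron length (horizontal axis, nt) in the 595 genes with 2 or more multi-exon isoforms; bars are shares, whiskers 95% Wilson intervals, and numbers give retained over all introns of the class. The classes below 80 nt sit at 3.48% and 2.43%, the 3 classes between 80 and 999 nt at 11.4% to 12.1%, and none of 656 introns from 3000 nt upwards was retained.

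Introns in first exons were the longest at the median, at 453.5 nt (quartiles 102.75 and 805.25, interval of the median 194 to 607), followed by internal exons at 266 nt (interval 155 to 434) and last exons at 252 nt (interval 215 to 375). The 3 intervals overlap. The shortest members were a 49 nt intron of CG2233 in a first exon, introns of 51 nt and 53 nt in 1 first exon of CG17683, a 51 nt intron of CG17883 in an internal exon and a 53 nt intron of CG3662 in a last exon. Another member of 53 nt lay in an internal exon of trpl, a light-sensitive cation channel of photoreceptors. The longest were a 2642 nt intron of NKAIN, a gene named for interaction with the sodium-potassium ATPase, in a last exon, a 2250 nt intron of flap in an internal exon, and a 2227 nt intron of CG42542 in a first exon. A 2214 nt intron of CG31760 in a first exon and a 2193 nt intron of GluClalpha, a glutamate-gated chloride channel, in a last exon followed.

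**Figure D2:**
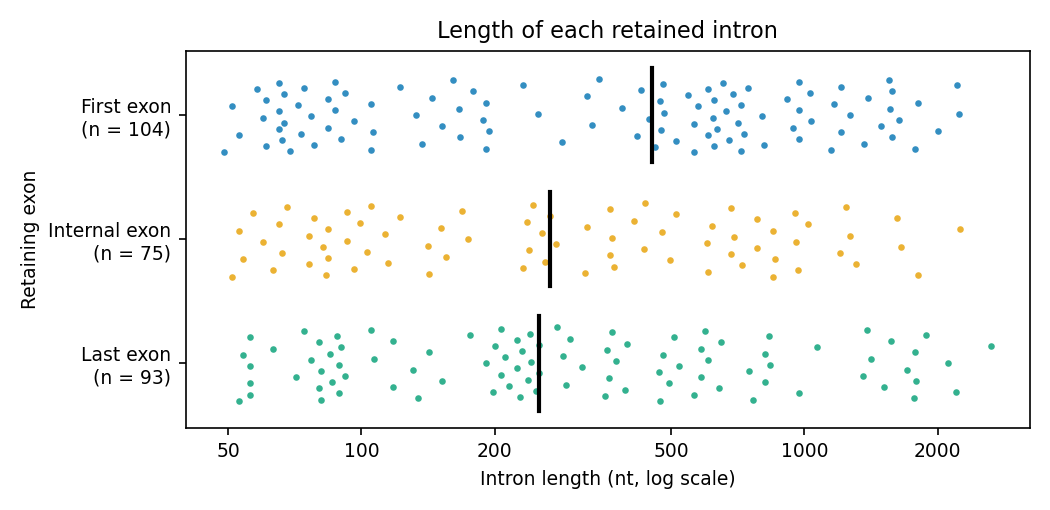
Length of each retained intron (horizontal axis, nt, log scale) by the kind of exon that holds it; every point is 1 intron, the vertical scatter has no meaning and black bars mark medians of 453.5, 266 and 252 nt. The groups overlap over nearly their whole range, from 49 to 2642 nt.

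The position of the introns in annotated transcripts, which the definition did not use, set them apart from other introns. Among the 274, 82 lay in the 5′ UTR (29.9%, 24.8 to 35.6), against 12.2% of other introns, a difference of 17.8 percentage points (12.6 to 23.5). Coding introns made up 168 of 274 (61.3%), against 83.2% (difference -21.9, -27.8 to -16.3). Introns of the 3′ UTR were rare in both sets, with 11 of 274 (4.01%, 2.26 to 7.04), against 158 of 15756 other introns (difference 3.01, 1.25 to 6.05). Against the 4204 other introns of genes with 2 or more isoforms, the 5′ UTR difference was 13.5 points (8.27 to 19.3) and the coding difference -15.7 (-21.7 to -9.99). Another 8 introns took a different position in different transcripts, 2 belonged to non-coding genes and 3 were not annotated.

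The kind of retaining exon went with this position. In first exons 78 of 104 introns were in the 5′ UTR (75.0%, 65.9 to 82.3) and 21 were coding. In internal exons 69 of 75 were coding (92.0%, 83.6 to 96.3). In last exons 77 of 93 were coding (82.8%, 73.9 to 89.1) and 10 were in the 3′ UTR. The position of introns beside first, internal and last exons in general was not measured. By order in the spliced isoform, 96 of the 104 introns in first exons were first introns, and 52 of the 93 in last exons were the last intron, while 34 of those 93 were middle introns. Of all 274, 97 were first introns (35.4%, 30.0 to 41.2), against 18.6% of other introns in genes with 2 or more isoforms.

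**Figure D3:**
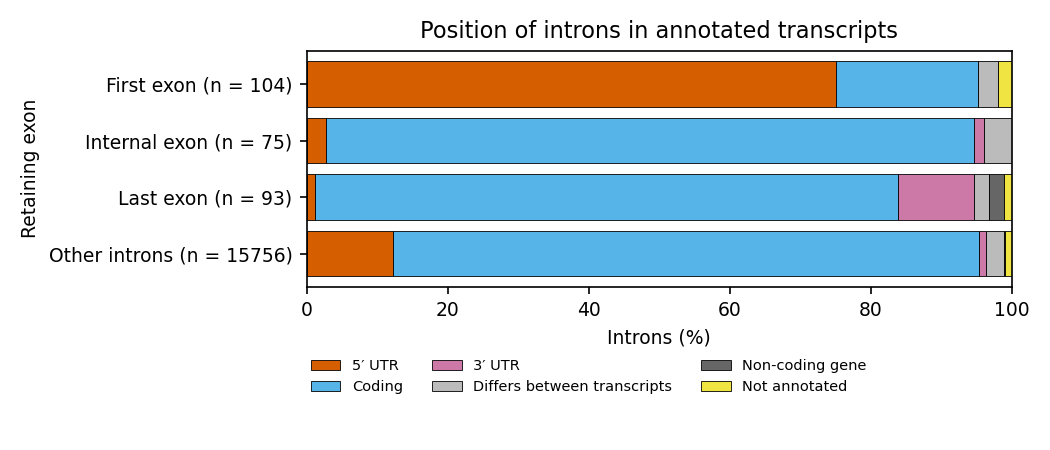
Position of introns in annotated transcripts (horizontal axis, percent of introns) for introns retained in a first, internal or last exon, with all other introns at the bottom. The 5′ UTR holds 75.0% of introns in first exons, and coding sequence holds 92.0% of those in internal exons, 82.8% in last exons and 83.2% of other introns.

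The lengths at each position were set beside other introns of genes with 2 or more isoforms, with and without those longer than the longest retained intron. The definition limits the length of the retained introns, so these medians are a description, and the cap was added after the values were seen. Retained 5′ UTR introns had a median of 477 nt (n = 82), against 1585.5 nt for other 5′ UTR introns of these genes and 746.5 nt for those of at most 2642 nt. Retained coding introns had a median of 249.5 nt (quartiles 93 and 630, n = 168), against 137 nt for other coding introns of these genes and 91 nt for those of at most 2642 nt (quartiles 63 and 466.5).

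An intron length that is a multiple of 3 keeps the reading frame on both sides of a retained coding intron. Among all retained introns, 97 of 274 had such a length (35.4%, 30.0 to 41.2), against 33.1% of other introns and 33.1% of all 16030, and the interval of the difference spanned 0 (2.30 points, -3.18 to 8.17). In the 168 coding members it was 54 (32.1%), against 33.0% of other coding introns (difference -0.840, -7.48 to 6.60). An excess of frame-keeping lengths was therefore not detectable over the set as a whole. The internal exons had the highest share, with 31 of 75 (41.3%, 30.9 to 52.6), 8.23 points above other introns with an interval from -2.25 to 19.6.

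The other remainders were uneven. A remainder of 1 was found in 68 of 274 (24.8%), a difference from other introns of -8.76 points (-13.6 to -3.27), and a remainder of 2 in 109 (39.8%), 6.46 points above other introns (0.796 to 12.4). The last exons carried the largest gap, with a remainder of 2 in 46 of 93 introns (49.5%, 39.5 to 59.4), 16.1 points above other introns (6.18 to 26.1). In first exons it was 36.5% and in internal exons 30.7%. A remainder of 1 was found in 20 of 93 introns of last exons (21.5%, 14.4 to 30.9), a difference of -12.1 points (-19.2 to -2.65). When only the shortest of overlapping introns of a gene was kept, last exons still had 39 of 77 (50.6%, 39.7 to 61.5). The remainder of 2 in last exons had the widest gap of 9 compared (3 remainders in 3 kinds of exon), was singled out after the values were seen, and the intervals are not adjusted for that choice.

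**Figure D4:**
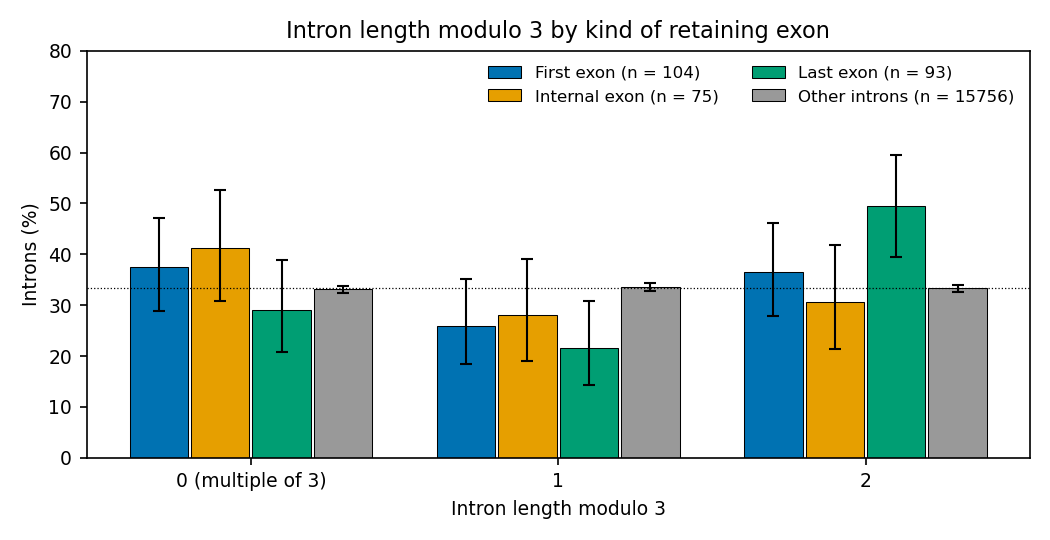
Share of introns (vertical axis, percent) by length modulo 3 (horizontal axis) for introns retained in first, internal and last exons and for other introns; whiskers are 95% Wilson intervals and the dotted line marks an even split over the remainders. For last exons, a remainder of 2 stands above the line at 49.5% (39.5 to 59.4) and a remainder of 1 below it at 21.5% (14.4 to 30.9).

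The codon position was read for the 167 retained coding introns with 1 annotated phase. Phase 0, between codons, held 79 (47.3%), phase 1 held 57 (34.1%) and phase 2 held 31 (18.6%), against 42.0%, 32.4% and 25.6% of other coding introns. The intervals of the differences included 0 for phase 0 (5.28 points, -2.19 to 12.9) and phase 1 (1.72, -5.09 to 9.24). For phase 2 the difference was -7.01 points (-12.2 to -0.385), and -6.65 (-12.0 to 0.0954) against other coding introns of genes with 2 or more isoforms. With only the shortest of overlapping introns of a gene kept, phase 2 held 29 of 141 (20.6%, 14.7 to 28.0). That interval includes the 25.6% of other coding introns.

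Nearly all of these introns are known introns, while the retained form is mostly not annotated. In the Ensembl annotation, 271 of 274 were introns of a transcript of the same gene (98.9%), against 99.0% of other introns. The retained form, that is an annotated transcript of the gene with an exon over the whole intron, existed for 84 of 274 (30.7%, 25.5 to 36.4), against 1.82% of other introns and 2.31% of all introns. It existed for 41 of 104 introns in first exons, 17 of 75 in internal exons and 25 of 93 in last exons. The 84 were shorter, with a median of 148 nt (interval 99 to 250), than the 190 without such a transcript, with a median of 402.5 nt (interval 314 to 513). Annotation guided the assembly of these isoforms and was itself built partly from cDNA, so it is not an independent experiment.

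For the 84 introns with an annotated retained form, the place of the intron relative to the coding sequence of that form was read. Such a transcript can differ from spliced ones elsewhere, and it need not be the retaining isoform seen here. The classes are therefore not effects of retention alone. In 43 cases the intron lay in the 5′ UTR of the retained form, 36 of these in first exons. In 22 cases the coding sequence ran into the intron and stopped inside it, 17 of these in last exons. In 11 cases the coding sequence ran straight through the intron, 7 of these in internal exons. In 4 the intron lay in the 3′ UTR, in 3 the coding sequence started inside it, and 1 belonged to a non-coding transcript.

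The introns that are read through add peptide to the annotated retained form. Of the 11, 9 had a length that was a multiple of 3. The shortest was a 54 nt intron (18 codons) of Usp47, a ubiquitin-specific protease, at 3L:5757122-5757175 of dm6, inside a 1652 nt internal exon. mxt, which encodes the translation regulator Mextli, kept 66 nt (22 codons), and 1 isoform retained the intron while 2 spliced it. The 78 nt intron of stv (26 codons) was the one retained in 3 isoforms, 2 of which carried an annotated transcript identifier. An 84 nt intron of CG3588 added 28 codons.

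Longer inserts of the same kind were found in teq (Tequila, a serine protease) and flap. The teq intron of 1239 nt (413 codons, 3L:9088116-9089354) sat in a 2100 nt internal exon of 2 isoforms and was removed in 1, and spliced and retaining isoforms shared both ends. In flap, introns of 1806 nt (602 codons) and 2250 nt (750 codons) with the same upstream splice site lay in a single internal exon of 2646 nt, each removed in 1 isoform. The read-through members outside internal exons were a 60 nt intron of Elal (20 codons) in a first exon and a 105 nt intron of Rpn13, a ubiquitin receptor of the proteasome, in a last exon (35 codons). All but the CG3588 intron interrupted a codon after its first base (phase 1). The 2 with other lengths, 56 nt in CG10205 and 80 nt in csw (corkscrew, an SH2-domain tyrosine phosphatase), were both in last exons and had a remainder of 2, a length that does not keep the frame.

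Several long retained introns of internal exons joined the same flanking exons and had no annotated retained form. They included 1652 nt in gol (goliath, a ubiquitin ligase), 1614 nt in CG33110, 1201 nt in CG30122, 1016 nt in Pcf11, a factor of 3′ end cleavage and transcription termination, and 966 nt in qvr (quiver, a regulator of the Shaker potassium channel). A 952 nt intron of Ciz1 was of the same kind. In gol, CG33110, CG30122, Pcf11 and qvr the isoforms with and without the intron shared the TSS and the PAS, and each form was 1 isoform. In Ciz1 they shared the TSS but not the PAS.

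Isoform ends are not named in the definition but are not independent of it. The outer edge of a retaining first or last exon is itself a TSS or PAS. An isoform that starts downstream of the intron or ends upstream of it cannot hold the intron. A TSS was called shared within 50 nt and a PAS within 150 nt. For 261 of 274 introns (95.3%, 92.1 to 97.2) some spliced and some retaining isoform shared the TSS, for 175 (63.9%) they shared the PAS, and for 162 (59.1%, 53.2 to 64.8) a single pair of isoforms shared both. Only 4 shared neither. The TSS was shared for 102 of 104 introns in first exons, 71 of 75 in internal exons and 86 of 93 in last exons. Both ends were shared for 65.4% in first exons, 64.0% in internal exons and 47.3% in last exons.

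Over isoform pairs, those that spliced and retained an intron shared the TSS in 305 of 353 pairs (86.4%), against 683 of 1136 other pairs of isoforms of a gene (60.1%). They shared the PAS in 189 (53.5%), against 44.9%, and both ends in 163 (46.2%), against 25.8%. Pairs share isoforms and genes, so these are given without an interval of the difference. Both isoforms of a pair that splices and retains an intron must cover it, which other pairs need not. How much of the difference this requirement sets was not tested. Isoforms were kept in the assembly only with a 5′ end supported by a promoter database, which bears on shared TSSs in both sets.

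The last exons held retaining isoforms of different kinds. In 53 of 104 combinations of an intron and a last exon that held it, the exon ended at the PAS of a spliced isoform. In 43 of these 53 (81.1%) the end lay within 150 nt of an annotated 3′ end, which was 38 of 45 isoforms. In 45 combinations, from 29 isoforms of 25 genes, the exon ended upstream of every isoform that spliced the intron. Of these 45 combinations, 34 (75.6%) ended inside an intron of a spliced isoform and 8 (17.8%) near an annotated 3′ end. Counted by isoform, these were 20 and 6 of 29. An end is counted once for each intron its exon holds, so no intervals are given for combinations. In the other 6 combinations the exon ended downstream. Introns in last exons thus include introns kept in an isoform model with the end of its spliced partner and introns in a model that ended earlier. The paper names internal priming, at A-rich sites, as a source of false 3′ ends in most long-read approaches. Its part in these early ends was not tested.

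Early ends inside an intron were found in 20 isoforms of 16 genes. In Vha100-1, a subunit of the vacuolar proton pump that acts at synapses, a last exon of 2265 nt held introns of 767, 833, 1356 and 595 nt and ended inside an intron. In GluClalpha a last exon of 4055 nt held introns of 1068, 393 and 2193 nt, and in Atpalpha a last exon of 4142 nt held introns of 191, 494 and 1778 nt. Their ends were not near an annotated 3′ end. CLIP-190, a microtubule plus-end protein, differed: its last exon of 947 nt held introns of 225 and 228 nt, coding sequence stopped inside the intron in the annotation, and the end was annotated. Other genes with an early end inside an intron were Nrx-1 (neurexin), scrib (scribble, a polarity protein), Eb1 (a microtubule end-binding protein), shep (an RNA-binding protein) and Pde1c (a phosphodiesterase), named here after their values were seen.

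Some retained introns of a gene overlapped each other. The 274 introns formed 229 loci when overlapping ones were merged, and 35 loci held more than 1. In 13 of the 35, an exon used by a spliced isoform lay wholly inside the retained stretch, and in the other 22 no exon lay inside it. In Pfk, the phosphofructokinase of glycolysis, an internal exon of 2090 nt held introns of 372, 955, 1265 and 682 nt. Between them 2 alternative exons of 109 nt each were used, 1 in each spliced isoform, and the retaining isoform kept the introns and both exons while it shared both ends with a spliced isoform. PCB, the pyruvate carboxylase, had an internal exon of 3473 nt that held introns of 477 and 780 nt around a 48 nt exon, and the 1305 nt intron that skips it. Its first exon held introns of 72 and 122 nt in the 5′ UTR, and that retaining isoform was annotated. Lpin (lipin, a phosphatidate phosphatase) held introns of 93, 142 and 364 nt around a 129 nt exon. Retained introns shared a splice site with another intron of the gene, retained or not, in 100 of 274 cases. This compares with 1245 of 4204 other introns of genes with 2 or more isoforms.

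Some exons held several separate introns. Of 214 distinct retaining exons, 160 held 1 retained intron, 38 held 2 and 16 held 3 or more, and 21 held at least 2 that did not overlap. slo, the BK calcium-activated potassium channel, had 4 such introns in 1 isoform. An 1800 nt intron lay in its first exon, in the 5′ UTR, and introns of 200, 285 and 314 nt lay in its last exon of 1449 nt, which ended at the same PAS as the spliced isoform. Another 3 genes, chosen after their values were seen, also held several separate introns in 1 exon. nAChRalpha2, a nicotinic acetylcholine receptor subunit, held introns of 848, 169 and 232 nt in a single internal exon of 2378 nt, and nAChRbeta1, another subunit, held introns of 782 and 155 nt in an internal exon of 1674 nt. ras (raspberry, the IMP dehydrogenase of purine synthesis) held introns of 188, 92 and 194 nt in a first exon of 1638 nt. Spliced and retaining isoforms shared the PAS in nAChRalpha2 but not in nAChRbeta1 or ras. In all the retaining isoforms named here other introns of the gene were removed, since every isoform considered has more than 1 exon.

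**Figure D5:**
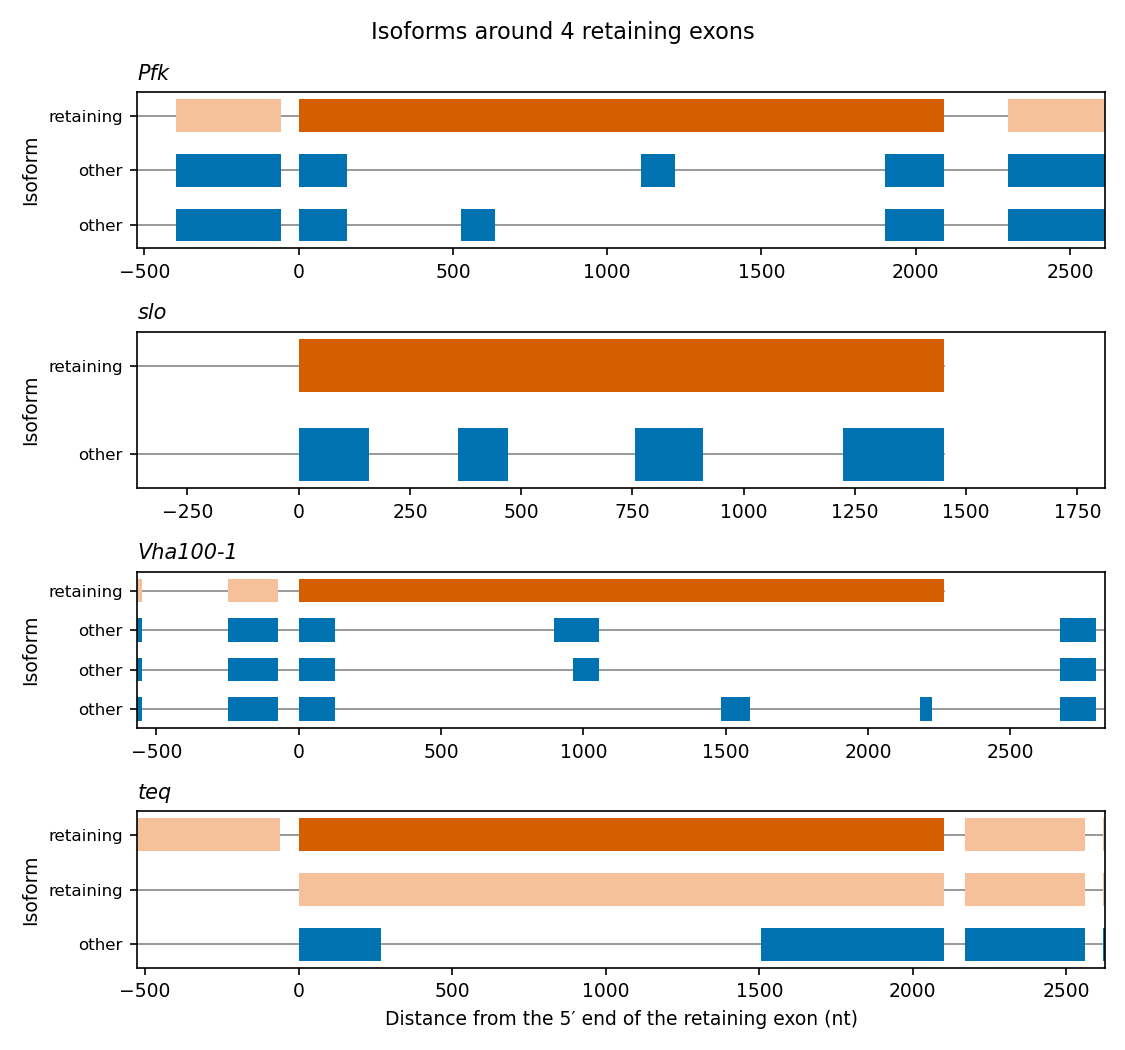
Isoforms around 4 retaining exons, in nt from the 5′ end of the retaining exon (horizontal axis); the retaining exon is dark orange, other exons of retaining isoforms are light orange, exons of the other isoforms are blue and lines are introns, cropped at the frame. Pfk keeps the stretch around 2 alternative 109 nt exons, slo keeps 3 separate introns up to the same end, the Vha100-1 exon ends inside an intron of its spliced isoforms, and the 1239 nt intron of teq is kept in 2 isoforms.

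The isoforms that retain an intron were 215 in number, of 4700 multi-exon isoforms. Only 61 (28.4%, 22.8 to 34.7) carried an annotated transcript identifier, against 879 of 1285 other isoforms in genes with 2 or more isoforms (68.4%), a difference of -40.0 points (-46.2 to -33.2). By kind of exon, 28 of 83 isoforms with a retaining first exon, 10 of 62 with an internal one and 25 of 76 with a last one carried such an identifier. Their 3′ ends were near an annotated end in 145 of 215 cases (67.4%), against 892 of 1285 (69.4%), and the interval of the difference included 0 (-1.97 points, -8.94 to 4.47). Keeping an intron merges 2 exons and adds its length, so exon number and length follow in part from the definition and are given as a description. Retaining isoforms had only 2 exons in 39 of 215 cases (18.1%), against 82 of 1285 (6.38%). Their spliced length had a median of 2677 nt, against 2378 nt, and 40.0% were over 3000 nt, against 30.4%. The libraries were selected for long cDNA, and the part of that step in these counts was not tested.

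Gene groups were read against the 31.8% of genes with 2 or more isoforms that held a retained intron. The lists are small, and nothing particular to a list is drawn from them. Of photoreceptor genes, 4 of 5 held one. Arr1 had introns of 419 nt and 233 nt, both coding. Galphaq, the G protein that rhodopsin activates, had a 77 nt intron in a first exon and a 469 nt intron in a last exon. norpA, the phospholipase C of phototransduction, had a 973 nt intron of the 5′ UTR in a first exon, and trpl had its 53 nt coding intron.

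Synapse genes held one in 5 of 8 cases. Syt1, the calcium sensor of vesicle release, had 4: introns of 498, 63 and 57 nt in an internal exon of 1106 nt, and a 1381 nt intron in a last exon. shi (dynamin, which severs endocytic vesicles) had introns of 576 and 387 nt in a first exon, both in the 5′ UTR and ending at the same splice site. A 606 nt coding intron of Csp, the cysteine string protein, lay in the last exon of 2 isoforms that were both annotated, with the coding sequence stopping inside it. ChAT, the enzyme that makes acetylcholine, had a 206 nt coding intron in a last exon, and the cpx intron is described above.

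Splicing regulators held one in 5 of 13 cases. lark, an RNA-binding protein linked to the clock, had introns of 250, 344 and 105 nt in a first exon, the 250 and 344 nt ones in the 5′ UTR. Hrb98DE, an hnRNP A-type protein, had introns of 362 and 1763 nt of the 3′ UTR in a last exon. Doa, a kinase that phosphorylates SR proteins, and Pep, a zinc finger protein of nascent transcripts, each had an intron of the 5′ UTR in a first exon, of 1210 and 1164 nt.

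Of the metabolic enzymes, 2 of 6 held one: Pfk, as above, and SdhA, a subunit of succinate dehydrogenase, with introns of 87 and 133 nt in the 5′ UTR and an annotated retained form. Among clock genes, 1 of 3 did: cyc (cycle, the partner of Clock), with a 56 nt coding intron in a last exon. No ribosomal protein gene (0 of 5), muscle gene (0 of 5) or chromatin gene (0 of 3) with 2 or more isoforms held one.

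The retained introns were spread over the major chromosome arms. Of 274, 76 lay on 2R, 68 on 3R, 48 on 3L, 42 on 2L, 38 on X and 2 on chromosome 4. The X held 13.9% of retained introns, against 14.0% of other introns. Within the kinds, X held 25 of 104 introns in first exons (24.0%, 16.8 to 33.1) and 4 of 75 in internal exons (5.33%, 2.09 to 12.9), while 3R held 39 of 93 in last exons (41.9%, 32.4 to 52.1), against 24.9% of other introns. With only the shortest of overlapping introns kept, 3R held 31 of 77 in last exons (40.3%, 30.0 to 51.4). The arms given within the kinds were not chosen in advance, and the intervals are not adjusted for that choice.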

How the data were processed

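Per the methods, the authors pooled consensus reads of the 3 libraries, mapped them to dm6 and built isoforms with FLAIR 1.1 and Ensembl release 96, keeping isoforms with a promoter-supported 5′ end and at least 2 full-length reads. The deposited units are other than expression: coordinates of exons on dm6 without any abundance or normalization, so depth per library, a spread between replicates and tests could not be had. For the filter on 3′ ends that the methods describe, its use on this file is not given in those sources.

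Of 5272 isoforms, the 4700 with more than 1 exon and a FlyBase gene identifier were used. Introns are gaps between consecutive exons, distinct by gene, strand and both ends. Positions, coding frames and names came from Ensembl release 115 (BDGP6.54, the assembly called dm6). Of the gene identifiers, 3771 matched it and 24 did not. In all 3758 isoforms with a transcript identifier that it holds, the splice chain was that of the transcript. Spliced isoforms share the exact intron. No genome sequence was used, so splice sites, GC content and stops in frame were not analysed. The coding sequence of retained forms was taken from annotated transcripts.

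Shares have 95% Wilson intervals, differences Newcombe intervals and medians binomial order-statistic intervals. Named genes are those with most, longest or shortest retained introns, with an annotated read-through form (in place of the planned reading of the sequence for stops), in 8 gene lists, or with the longest retained introns between unchanged flanking exons of an internal exon. Members and lists were chosen with earlier results of these data known. The code that finds retained introns was checked on simulated isoforms, made by merging neighbouring exons of isoforms in these data. This checks the code alone and not the detection of retained introns in sequencing reads. Alternatives changed the hosts, the overhang (at least 20 nt), the flanks and the annotation, or kept only the shortest of overlapping introns. All measured columns belong to the pooled group. Calculations used Python 3.11.15, numpy 2.4.6, scipy 1.17.1 and matplotlib 3.10.9. A result for 1 listed gene is not reported here.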

Additional observations from a re-analysis of the deposited data

Results flagged for a closer look

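The isoforms without a gene identifier lie outside the comparisons above. On the same strand, their exons held 35 introns of 23 genes. Of these, 5 were already retained introns by the definition used here (2 in Arr1, and 1 each in Ggamma30A, Rim and Trf2). The other 30, in 20 genes, would be retained introns if those isoforms belonged to the gene. They included 4 introns of Ddc, the dopa decarboxylase that makes dopamine and serotonin (1027, 77, 868 and 635 nt), 3 of the ribosomal protein gene RpL10Ab (309, 302 and 92 nt) and 3 of CG10433 (274, 107 and 63 nt). The file does not assign these isoforms to a gene, and whether they are transcripts of it was not tested.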

How the results depend on the processing

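Which isoforms may hold an intron moved the counts most. Leaving out isoforms whose 3′ end lay over 150 nt from an annotated one gave 170 introns in 120 genes, 70 in first and 45 in last exons, against 106 and 93 (introns held by 2 kinds of exon counted under both). Requiring the same flanking exons gave 45 in last exons. With retaining isoforms limited to those with an annotated identifier, an alternative chosen after seeing the data, 73 introns in 56 genes remained as a count, 36 in first, 11 in internal (against 77) and 26 in last exons, with a median of 225 nt. The median of other introns was 72 nt when those longer than the longest retained intron were left out, and 257.5 nt in genes with 2 or more isoforms. The other 47 values were within 1.5 times the reported count or, for medians and shares, within the reported value's own 95% interval. They include all shares of lengths that were a multiple of 3 and 185 introns with the same flanking exons. They also include 229 introns with a median of 252 nt when only the shortest of overlapping introns was kept. That choice itself favours short introns. Single-exon isoforms as hosts added 3 introns (EbpIII, eEF1alpha1 and lncRNA:Hsromega). Reading coding introns for stops in frame was not run because no genome sequence was used. No paired analysis was possible because the 3 libraries form 1 group and were pooled, and no library could be left out. Depth is unknown, so an intron not seen as retained may be retained in transcripts without 2 full-length reads.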
